A study of Mus musculus with 15 samples.

Results

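MicroRNAs reported to mature without the Drosha complex were followed in the plasma of septic mice: mmu-miR-320-3p, mmu-miR-484, mmu-miR-877-5p, mmu-miR-877-3p, mmu-miR-1839-5p and mmu-miR-1839-3p (mmu, for mouse, is left out from here on). They are the 6 rows, of 1205 in the table of miRNA read counts, whose name holds one of these mature miRNAs. They were chosen for how their hairpins are reported to be made, with earlier results of these data known. All mice were male, wild type and of the strain C57BL/6J, and their platelet-free plasma was sampled 24 h after an operation. For the 6 sham libraries this was a sham operation. For the 9 CLP libraries it was cecal ligation and puncture, in which the tied and pierced cecum leaks gut bacteria, a common sepsis model. Libraries are named by group and number. Whether a number stands for a separate animal is not in the labels, and the p-values cover the spread of these samples, which may be technical.

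Most miRNAs take shape in steps: in the nucleus Drosha and its partner DGCR8 free a hairpin from a long transcript, and in the cytoplasm Dicer cuts off the loop, after which an Argonaute protein keeps mostly 1 arm (5p or 3p). A few hairpins skip the Drosha step. miR-320 and miR-484 are read from the start of a short RNA polymerase II transcript whose capped 5′ end is already the end of the hairpin. miR-877 is a mirtron, a short intron that folds into a hairpin once the spliceosome has cut it out. In plasma, mature miRNAs circulate bound to Argonaute or inside vesicles, and miR-320 and miR-484 are commonly read there.

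The mature sequences below, from RefSeq on GRCm38.p6, are given for the members the results turn on, 5′ to 3′, with the seed (bases 2 to 8, which pair with target transcripts) in capitals. RefSeq sequences were matched for 4 of the 6 members and not for miR-320-3p and miR-1839-3p.
miR-484: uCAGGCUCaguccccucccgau
miR-877-5p: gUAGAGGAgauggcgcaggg
miR-877-3p: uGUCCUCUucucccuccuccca
miR-1839-5p: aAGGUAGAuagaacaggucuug
No other of the 998 table rows with a known sequence shared a seed with any of these 4. The GC content was 63.6% for miR-484, 65.0% for miR-877-5p, 59.1% for miR-877-3p and 40.9% for miR-1839-5p, against a median of 47.8% over tested miRNAs with a known sequence. miR-484 and both arms of miR-877 are thus rich in G and C, and miR-1839-5p is not.

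The loci of the hairpins differ. The miR-877 hairpin, shown because it is also an intron, runs over chr17:35960730-35960814 on the minus strand (mm10), and those 85 bases are exactly an annotated intron of Abcf1, which encodes an ATP-binding protein linked to translation. It begins with GU and ends with AG, the ends of a spliced intron, and capitals mark its mature arms.
Mir877: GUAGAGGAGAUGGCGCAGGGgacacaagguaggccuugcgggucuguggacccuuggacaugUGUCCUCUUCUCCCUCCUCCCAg
The miR-1839 hairpin, at chr7:81529916-81529988 on the plus strand, lies in the long noncoding RNA gene 2900076A07Rik, in an exon of some transcripts and an intron of others. GENCODE also annotates a small Cajal body RNA (scaRNA, a guide RNA for modifying spliceosomal RNAs) of 127 bases at that place, and it overlaps 66 of the 73 bases of the hairpin. miR-1839-5p covers bases 65 to 86 of that RNA.
Mir1839: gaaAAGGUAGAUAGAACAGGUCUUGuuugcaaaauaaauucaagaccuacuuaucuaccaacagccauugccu
Capitals mark miR-1839-5p, whose run near the middle of the scaRNA means that fragments of the scaRNA and the miRNA would share sequence; the 2 were not told apart. The miR-320 hairpin, at chr14:70443510-70443591 on the plus strand, overlaps no other gene and begins 63 bases from the start of Polr3d, an RNA polymerase III subunit gene that runs the other way. The miR-484 hairpin, at chr16:14159626-14159692 on the plus strand, begins 3649 bases from the annotated start of Nde1, which runs the same way, and lies opposite an untranslated exon of 1 transcript of Marf1.

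Libraries held 5274676 to 13576482 counts, of which the 6 members took between 0.153% and 0.292%. Levels are given as CPM, the usual share of a library's reads scaled to a common total, here with the TMM correction for library composition. At these depths 3 reads, the limit that a count of 0 allows, equal 0.237 to 0.547 CPM. Counts come after adapter ligation, which favours some sequence ends, so a level sets the same miRNA apart between libraries better than it ranks different miRNAs. Fold changes are log2 of CLP over sham from edgeR's quasi-likelihood test, with p-values adjusted by Benjamini-Hochberg over all 426 tested miRNAs and a threshold of 0.05. By that rule 47.2% of tested miRNAs differed, 25.4% being higher and 21.8% lower in CLP.

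In septic plasma the members did not move together. The mirtron arm miR-877-5p fell 20.3-fold and miR-484 fell 2.33-fold, while miR-1839-5p rose 3.82-fold. miR-320-3p and miR-877-3p were on average lower but did not pass the test, and miR-1839-3p was too scarce to be tested. Of the 5 members tested, 1 rose, where 25.4% of all tested miRNAs did, and 2 fell, where 21.8% did. The median log2 fold change of the 5 was -0.99, beside 0.11 over all tested miRNAs. That median is the value of the scarce miR-877-3p alone, and the 5 ran from -4.35 to 1.93. Counts of the 6 members were whole numbers in all 15 libraries, where a fraction would have shown reads divided with a similar miRNA; a whole number does not show that none were shared.

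**Figure D1:**
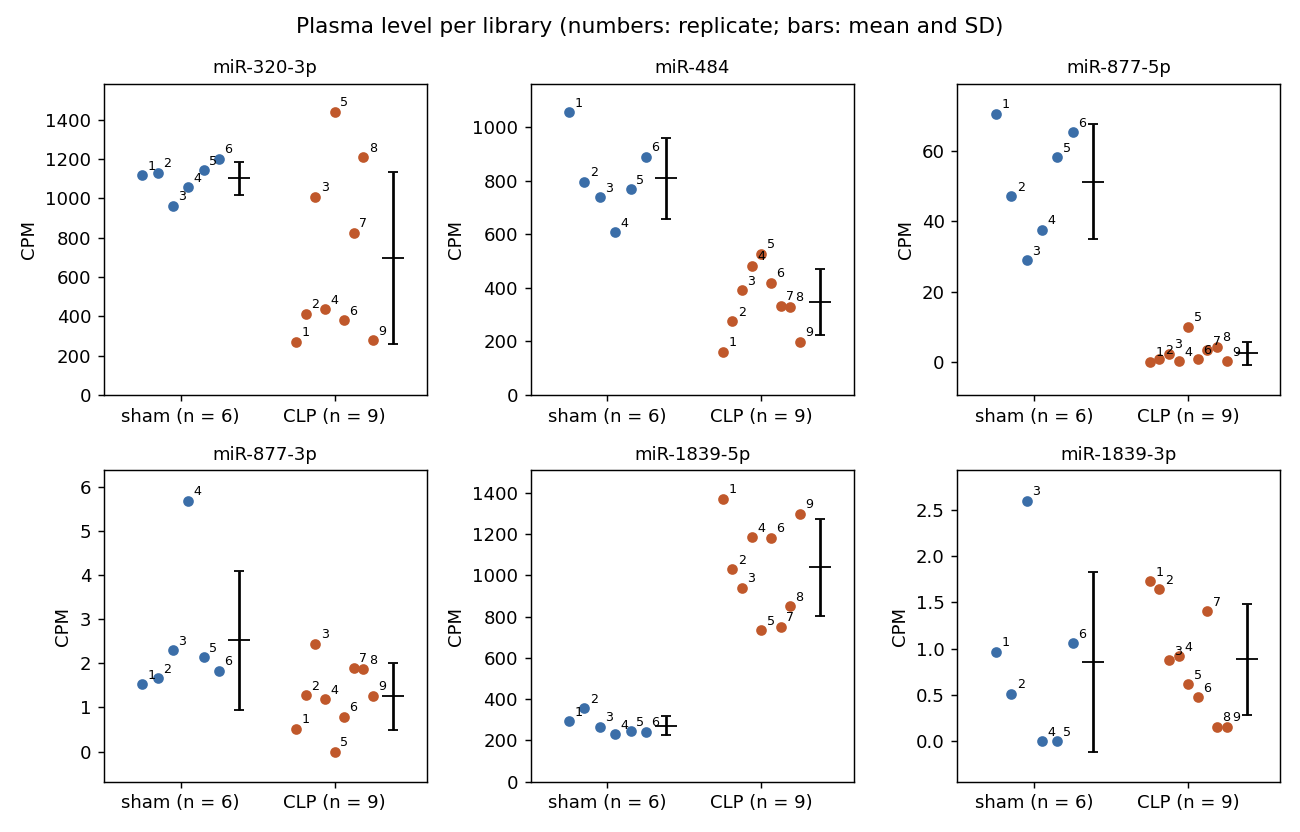
Level (CPM, linear axes) of each member in each library, sham in blue and CLP in orange, numbered by replicate, with the mean and SD as a black bar. The groups are apart for miR-484, miR-877-5p and miR-1839-5p, and the 9 CLP libraries of miR-320-3p spread from 270.1 to 1442 CPM.

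The order of the levels changed with the groups. In sham it ran from miR-320-3p (1103 ± 82.4 CPM, SD, n = 6) over miR-484 (809 ± 151), miR-1839-5p (272 ± 46.9) and miR-877-5p (51.4 ± 16.3) to miR-877-3p (2.52 ± 1.58) and miR-1839-3p (0.856 ± 0.966). Of these neighbours, miR-320-3p and miR-484 overlapped in range, as did the last pair. In CLP miR-1839-5p came first (1038 ± 234 CPM, SD, n = 9), ahead of miR-320-3p (696 ± 438), miR-484 (347 ± 122), miR-877-5p (2.43 ± 3.25), miR-877-3p (1.25 ± 0.754) and miR-1839-3p (0.885 ± 0.596). Neighbours in that order overlapped in range, apart from miR-484 and miR-877-5p. By mean level over all 15 libraries miR-320-3p ranked 59th, miR-1839-5p 66th and miR-484 71st of the 426 tested miRNAs.

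miR-320-3p, the better-known of the capped-hairpin miRNAs, was steady in sham and uneven in CLP. The sham libraries lay between 963 and 1202 CPM with a median of 1124. The CLP libraries lay between 270.1 and 1442 CPM with a median of 438. CLP 1, 2, 4, 6, 7 and 9 held 270.1, 414, 438, 379, 825 and 279 CPM, all below every sham library. CLP 3, at 1009 CPM, lay inside the sham range, while CLP 5 and CLP 8, at 1442 and 1211 CPM, exceeded every sham library. The log2 fold change was -0.66 ± 0.34 (SE; edgeR adjusted p = 0.115) and did not pass. It did pass without CLP 5 (-0.94, edgeR adjusted p = 0.0181) or without CLP 8 (-0.87, 0.0419), and with library size scaling (-0.91, 0.0268). It also passed with limma voom with quality weights, which counts unusual libraries less (-0.94, limma adjusted p = 0.0146).

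miR-484, the other capped-hairpin miRNA, fell. Sham libraries held between 607 and 1055 CPM with a median of 782. CLP libraries held between 161 and 527 CPM with a median of 334, lowest in CLP 1 and highest in CLP 5. All 9 CLP libraries thus lay below every sham library, as 11.3% of the tested miRNAs did. The log2 fold change was -1.22 ± 0.23 (SE; edgeR adjusted p = 0.000350). It passed under every alternative run, between -1.40 without CLP 5 and -1.15 without CLP 9 on leaving out 1 library, and was -0.80 (edgeR adjusted p = 0.00257) once a trend with GC content was removed from each library.

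The drop of miR-877-5p, the mirtron's first arm, was among the largest of all: only 3 of the 426 tested miRNAs had a lower log2 fold change. Sham libraries held between 29.0 and 70.7 CPM, or 190 to 678 reads. CLP libraries held between 0 and 10.0 CPM with a median of 0.790, and all 9 lay below every sham library. No read was found in CLP 1, 1 read each in CLP 4 and CLP 9, and 4 in CLP 2. CLP 5 held 114 reads, CLP 7 33, CLP 8 28, CLP 3 27 and CLP 6 10. The log2 fold change was -4.35 ± 0.71 (SE; edgeR adjusted p = 0.000101), and -5.13 without CLP 5, the highest CLP library.

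The other arm of the same intron, miR-877-3p, was rare in both groups, at 11 to 34 reads per sham library and 0 to 28 per CLP library. In CPM, sham ran from 1.52 to 5.69 with a median of 1.98, and CLP from 0 to 2.44 with a median of 1.26. Its log2 fold change of -0.99 ± 0.54 (SE; edgeR adjusted p = 0.138) did not pass, and was -0.66 without sham 4, which held the 34 reads. With an index of red cell lysis (the log2 ratio of miR-451a, a red cell miRNA, to miR-23a-3p) as a covariate it was -2.09 and passed (edgeR adjusted p = 0.00605). CLP 5, with the highest index of all libraries (0.716), was also the only library with no read of miR-877-3p. The covariate fit was not run without CLP 5.

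miR-1839-5p moved the other way. Sham libraries held between 229 and 356 CPM with a median of 255. CLP libraries held between 734 and 1371 CPM with a median of 1030, and all 9 lay above every sham library, as 8.45% of the tested miRNAs did. The log2 fold change was 1.93 ± 0.20 (SE; edgeR adjusted p = 4.03e-07). It passed under every alternative run, between 1.80 and 2.0 on leaving out 1 library, and was 1.48 with the GC trend removed. Reads of miR-1839-3p, the other arm, numbered 0 to 17 per sham library and 1 to 14 per CLP library, so no change was measurable at this depth. Over all libraries of a group, 12337 reads of the 5p arm stood beside 39 of the 3p arm in sham, and 77931 beside 65 in CLP.

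**Figure D2:**
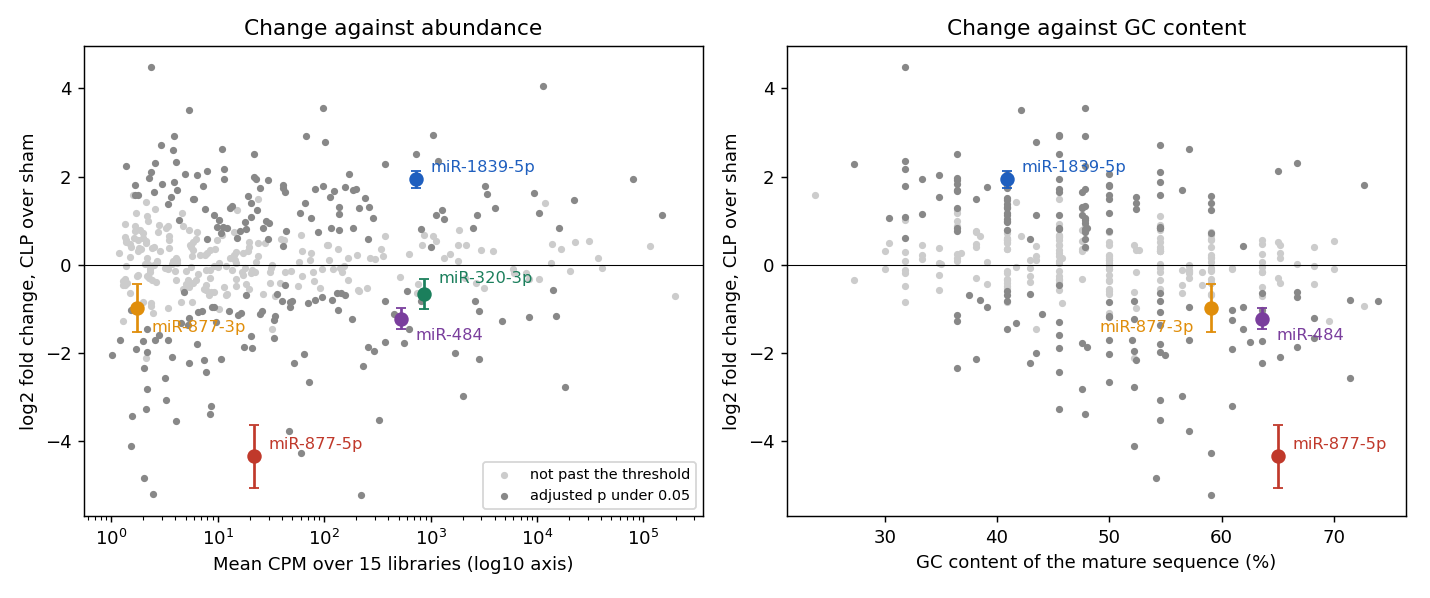
Log2 fold change, CLP over sham, of the tested miRNAs (grey points, dark where past the threshold) against mean CPM on a log10 axis and against GC content of the mature sequence in percent, where known; members are coloured with their SE as bars. miR-877-5p lies at -4.35, miR-484 at -1.22 and miR-1839-5p at 1.93; miR-320-3p has no point in the right panel.

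Ratios of 2 members within a library do not depend on how libraries are scaled. All 10 pairs of the 5 members with a mean of at least 1 CPM were tested by two-sided exact permutation over every assignment of the 15 libraries to 9 and 6, with p adjusted over the 10 pairs. The arms of miR-877 shifted against each other. The log2 ratio of 5p to 3p counts (pseudocount 0.5) was 4.40 ± 1.04 (SD, n = 6) in sham. In CLP it was 0.12 ± 3.26 (n = 9), a mean difference of -4.29 (exact permutation p = 0.0110, adjusted 0.0157). It ran from 2.71 to 5.48 in sham. In CLP it lay below that range in 8 libraries, between -2.81 and 1.19, and above it in CLP 5, at 7.84, where 114 reads of the 5p arm stood beside 0 of the 3p arm. Without CLP 5 the difference was -5.25. Over all libraries of a group, 2409 reads of the 5p arm stood beside 108 of the 3p arm in sham, and 218 beside 96 in CLP.

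The ratio of the capped-hairpin pair did not differ past the threshold. The log2 ratio of miR-320-3p to miR-484 averaged 0.46 ± 0.24 over 6 sham and 0.84 ± 0.71 over 9 CLP libraries (± SD), and the difference of 0.37 did not pass (exact permutation p = 0.241, adjusted 0.301). It ranged from -0.14 to 1.88 in CLP against 0.08 to 0.80 in sham: CLP 3, 5, 7 and 8 lay above every sham library, and CLP 4 and CLP 6 below. miR-877-5p fell more than either. The log2 ratio of miR-320-3p to miR-877-5p rose by 4.70 (exact permutation p = 0.0002, adjusted 0.000666) and that of miR-484 to miR-877-5p by 4.33 (exact permutation p = 0.000799, adjusted 0.00133). CLP 1 held 0 reads of miR-877-5p, so the size of its ratios depends on the pseudocount: with 5 in place of 0.5 these differences were 3.66 and 3.29, that of the arms of miR-877 -3.77 and that of miR-877-5p over miR-1839-5p -6.50, and each still passed. miR-1839-5p parted from all 4 others. The log2 ratio of miR-484 to miR-1839-5p went from 1.57 ± 0.28 to -1.64 ± 0.81, a difference of -3.21 (exact permutation p = 0.0002, the smallest this test can give, adjusted 0.000666). That of miR-320-3p to miR-1839-5p differed by -2.84, that of miR-877-5p by -7.54 and that of miR-877-3p by -3.25, with adjusted exact permutation p from 0.000666 to 0.00133 and all 9 CLP libraries below every sham library in each. The ratios of miR-320-3p and of miR-484 to miR-877-3p did not pass, at differences of 0.41 (exact permutation p = 0.883, adjusted 0.981) and 0.04 (0.981, adjusted 0.981).

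**Figure D3:**
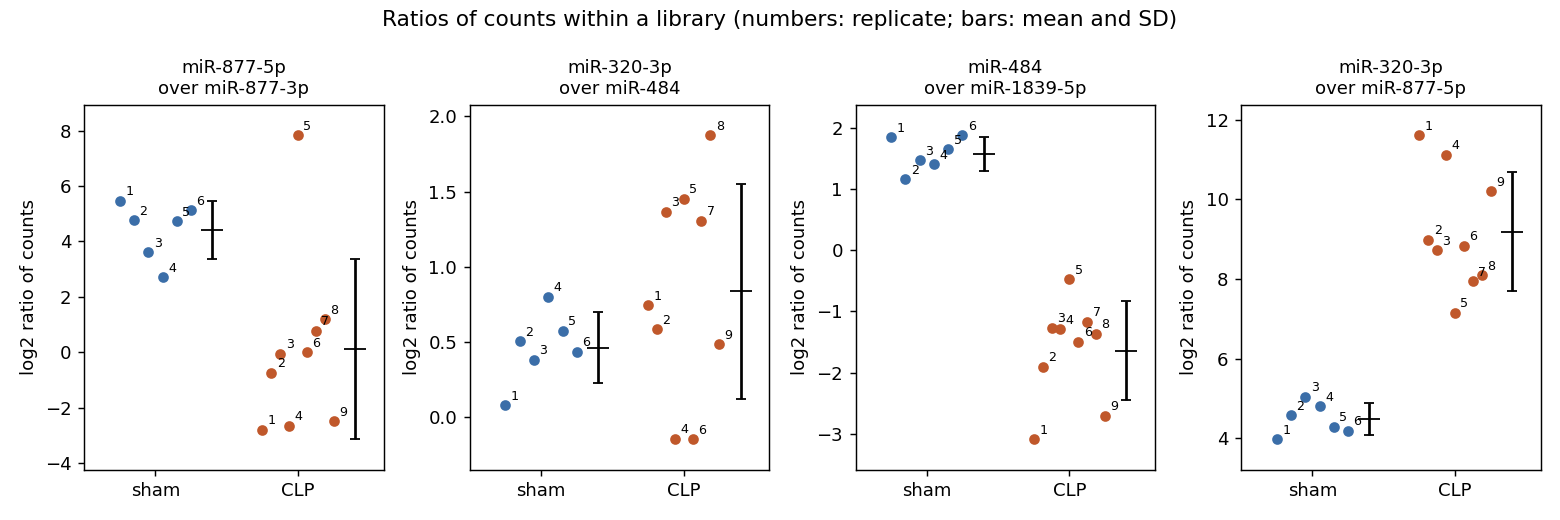
Log2 ratio of the counts of 2 members in each library for 4 of the 10 pairs, sham in blue and CLP in orange, numbered by replicate, with the mean and SD as a black bar. CLP 5 stands at 7.84 for the arms of miR-877, and in the second panel CLP 3, 5, 7 and 8 lie above the sham libraries.

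Among septic libraries, CLP 3, 5, 7 and 8 stood together for 3 members. CLP 3, 5, 7 and 8 held the 4 highest CLP levels of miR-320-3p (825 to 1442 CPM, the others at most 438) and of miR-877-5p (2.36 to 10.0 CPM, the others at most 0.790). The same libraries held the 4 lowest CLP levels of miR-1839-5p (734 to 941 CPM, the others at least 1030). miR-484 did not follow: CLP 5, 4 and 6 were highest, at 527, 482 and 419 CPM. Nor did miR-877-3p, with 0 reads in CLP 5. As a description over 15 libraries, with log2 CPM centred within each group, Spearman's rho was 0.932 between miR-320-3p and miR-877-5p, -0.789 between miR-320-3p and miR-1839-5p, and 0.511 between miR-320-3p and miR-484. For miR-877-3p it was 0.129 with miR-320-3p and 0.0714 with miR-877-5p. The values compared come from the same libraries, so they share each library's depth and its trend with GC content.

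A property of the whole library ran along with these levels. For each library, a slope on GC content was fitted to log2 CPM less each miRNA's mean over the 15 libraries. This used the 368 tested miRNAs with a known sequence. The slope was between 0.13 and 0.35 per 10 percentage points in sham and between -0.49 and 0.11 in CLP. The groups did not overlap. Each slope is relative to the other libraries and does not say whether miRNAs rich in G and C are the abundant ones. In CLP 3, 5, 7 and 8 the slope was 0.11, -0.06, -0.07 and -0.08, and in CLP 1, 2, 4, 6 and 9 it was -0.49, -0.16, -0.19, -0.15 and -0.34. CLP 1, with the steepest slope, also held the lowest miR-320-3p, miR-484 and miR-877-5p and the highest miR-1839-5p of all libraries. With the slope removed, the changes of miR-484, miR-877-5p (-3.95, edgeR adjusted p = 0.000122) and miR-1839-5p passed. miR-320-3p could not be fitted that way. The part of the slope in the order of the CLP libraries was not tested.

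**Figure D4:**
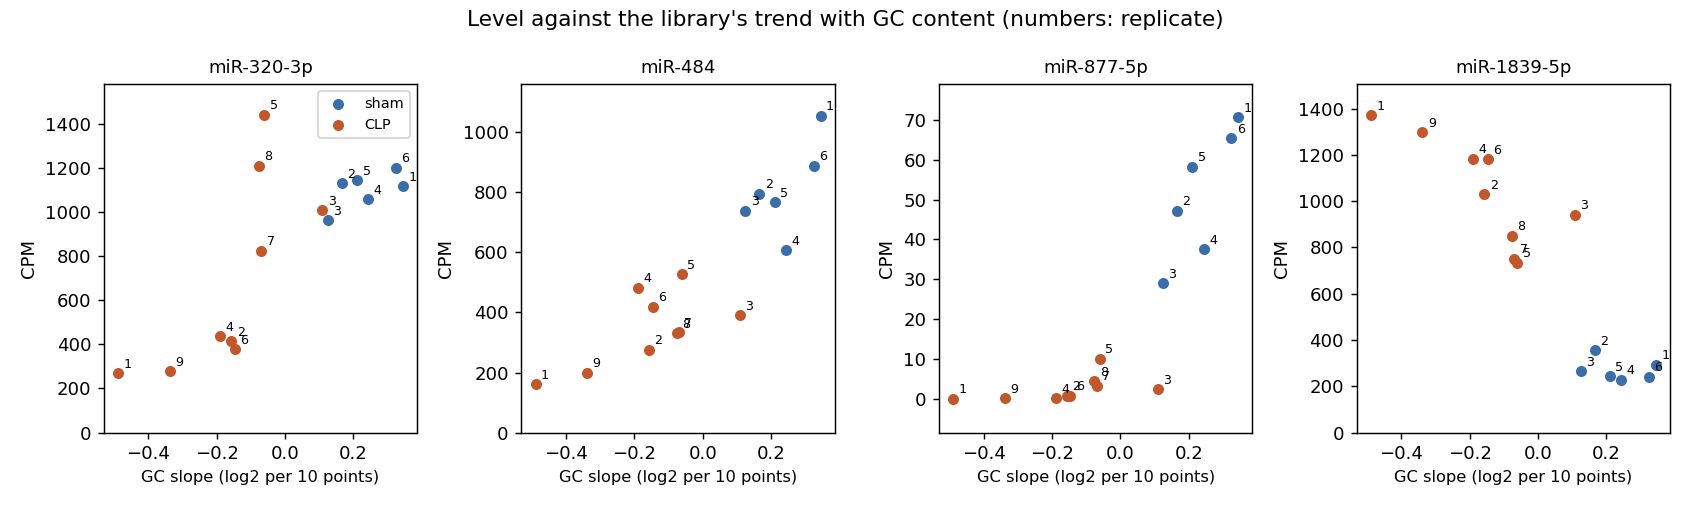
Level (CPM) of 4 members in each library against that library's slope of log2 CPM on GC content (log2 units per 10 percentage points), sham in blue and CLP in orange, numbered by replicate. The sham libraries lie to the right, at slopes of 0.13 to 0.35, and CLP 1 lies farthest to the left at -0.49.

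The markers of blood cells were compared with these levels. The red cell list (5 rows found, among them miR-451a and miR-486a/b-5p, none at 0) summed to between 158615 and 457350 CPM in sham and between 82881 and 380243 in CLP, and 1 of its 5 tested rows differed, falling. That row was miR-451a (log2 fold change -1.28, edgeR adjusted p = 0.00313), the numerator of the index of red cell lysis, so that index is not independent of group. The index of red cell lysis lay between -1.28 and 0.24 in sham and between -2.53 and 0.72 in CLP, and CLP 5, the library highest in miR-320-3p, miR-484 and miR-877-5p among the septic ones, was also highest in the index. With that index as a covariate the change of miR-320-3p was -0.40 (edgeR adjusted p = 0.414), that of miR-484 -0.99 (0.00581), that of miR-877-5p -3.83 (0.000183) and that of miR-1839-5p 1.89 (5.94e-06). The platelet list (4 rows found, 1 higher and 1 lower) summed to between 43707 and 59806 CPM in sham and between 24244 and 33729 in CLP, so the groups did not overlap. miR-191-5p fell from 37342 ± 3797 to 5450 ± 2419 CPM (SD; log2 fold change -2.78 ± 0.28, SE), and miR-24-3p rose from 11004 ± 2347 to 19713 ± 3415 (0.84 ± 0.18, edgeR adjusted p = 0.00111). Without miR-191-5p the other 3 rows summed to between 11048 and 17866 CPM in sham and between 14623 and 27613 in CLP, and these overlapped. miR-223-3p (0.36) and miR-126a-3p (-0.42) did not pass. The part of platelets in the members' changes was not tested. The sums of the myeloid (4 rows, 1 higher), hepatocyte (3 rows, none passing) and striated muscle lists (6 rows, 4 higher) overlapped between groups. Their medians in sham and CLP were 1743 and 2372 CPM (myeloid), 4883 and 7130 (hepatocyte), and 1158 and 21046 (striated muscle). The muscle sum ran from 410 to 6710 CPM in sham and from 4992 to 40609 in CLP. In plasma, fewer cells releasing an miRNA and less of it per cell cannot be told apart.

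Other miRNAs reported to arise outside the usual route gave a mixed picture. Of 6 listed arms of other mirtrons, 4 were in the table and 1, miR-3102-3p, was tested. It fell from 18.6 ± 5.32 CPM (SD, n = 6) to 1.94 ± 1.36 (n = 9), a log2 fold change of -3.21 ± 0.41 (SE; edgeR adjusted p = 5.32e-06), with all 9 CLP libraries below every sham library. miR-702-3p, miR-702-5p and miR-1224-5p stayed at means of at most 1.44 CPM in either group and were not tested. By position, 17 of 1005 RefSeq hairpins had both ends within 5 bases of the ends of an annotated intron. From them came 20 table rows, with miR-1224-5p but not miR-3102-3p, miR-702-3p or miR-702-5p among them. Besides the 2 arms of miR-877, 3 of these rows were tested and none passed: miR-1981-5p at -0.16 ± 0.16 (SE; edgeR adjusted p = 0.433), miR-7068-3p at -0.11 ± 0.34 (0.802) and miR-1981-3p at -0.98 ± 0.43 (0.0705). miR-1981-3p did pass in 7 of 26 alternatives, among them without CLP 5 (-1.26, edgeR adjusted p = 0.0155). Others were DESeq2 (-1.04, DESeq2 adjusted p = 0.0343) and limma voom with quality weights (-1.05, limma adjusted p = 0.0255). miR-1981-5p, from an intron of Marc2, held 33.0 ± 5.49 CPM in sham and 29.4 ± 4.22 in CLP, at a level near that of miR-877-5p in sham.

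Of the miRNAs read from small nucleolar or transfer RNA loci, all 3 listed were tested and 1 passed. miR-664-5p changed by -0.97 ± 0.35 (SE; edgeR adjusted p = 0.0315), a call lost with the lysis index as a covariate (0.227), with replicates 1 to 6 alone (0.0716), and without sham 5 (0.0627), sham 6 (0.0732) or CLP 9 (0.0618). Its partner arm miR-664-3p was at -0.49 ± 0.24 (edgeR adjusted p = 0.0945) and miR-1983, from a transfer RNA locus, at 0.78 ± 0.34 (0.0649). miR-664-3p passed in 7 of 27 alternatives, with the lowest edgeR adjusted p (0.00344, at -0.95) when the GC trend was removed. miR-1983 passed in 2 of 26, with limma voom with quality weights (1.10, limma adjusted p = 0.00711) and without sham 4 (0.93, edgeR adjusted p = 0.0399).

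The miRNAs with the most similar patterns were named by Spearman's rho of log2 CPM over the 15 libraries, as a description. Centred within groups, miR-320-3p was most like miR-423-5p (0.971), miR-184-3p and miR-877-5p (0.932 each). miR-877-5p was most like miR-423-5p (0.950), miR-320-3p (0.932) and miR-664-5p (0.875). miR-484 was most like miR-130b-5p (0.921), miR-328-3p (0.864) and miR-139-3p (0.829), and miR-1839-5p most like miR-148b-3p (0.921), miR-1843b-5p (0.796) and miR-103-3p (0.786). For the scarce miR-877-3p these were miR-335-5p (0.882), miR-671-5p (0.821) and miR-10b-5p (0.711). Without centring, where the difference between groups enters, the nearest were miR-187-5p for miR-320-3p (0.879), miR-222-3p for miR-484 (0.957), miR-423-5p for miR-877-5p (0.975), miR-671-5p for miR-877-3p (0.839) and miR-148b-3p for miR-1839-5p (0.982). The next 2 in each case were miR-664-5p and miR-470-5p, miR-139-3p and miR-23b-5p, miR-3473g and miR-30d-5p, miR-541-5p and miR-1943-5p, and miR-107-3p and miR-103-3p.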

How the data were processed

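Small RNA from platelet-free plasma was sequenced after ligation of adapters to both ends, per the labels' protocols. The authors deposited a table of expected counts per mature miRNA, not scaled for depth, whose name gives exceRpt, a small RNA pipeline. Per the submitters' processing notes the build was mm10. The aligner and the trimming are not given in the sources used here. Counts were rounded and tested with edgeR 4.0.16 in R 4.3.3 (filterByExpr, TMM, robust quasi-likelihood F test, no covariate, 6 sham against 9 CLP libraries, two-sided). Standard errors were approximated as |log2 fold change| over the root of F. On simulated counts for 357 miRNAs in this comparison, 65.6% of 2-fold and 100% of 4-fold changes were called. The simulation left out scarce miRNAs, among them miR-877-3p and miR-1839-3p, and gave all others the same relative spread. Its shares therefore do not cover those scarce arms or an uneven group such as miR-320-3p in CLP. Positions came from GENCODE M21, sequences from RefSeq. No 2 libraries of a group were copies (lowest chi-square per degree of freedom 288). Alternatives used limma 3.58.1 (voom with quality weights per library), DESeq2 1.42.0, other filters and scalings, covariates, and libraries left out. Leaving out CLP 1 and CLP 5 together was chosen after seeing the data. Members and lists were chosen with earlier results of these data known. All members, the companion lists, and the 3 miRNAs most alike by each measure were named by rule.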

Additional observations from a re-analysis of the deposited data

Results flagged for a closer look

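In 32 sets of values (members and ratios, by group), 7 held a library far from the others, where chance flags about 1 in 20 sets, and the 7 share reads with each other. Sham 4 held 5.69 CPM of miR-877-3p, where the other sham libraries held 1.52 to 2.29, and its log2 ratio of miR-877-3p to miR-1839-5p was -5.31 against -7.68 to -6.80. CLP 5 held 10.0 CPM of miR-877-5p, where the other CLP libraries held 0 to 4.36. It held no read of miR-877-3p, and 4 ratios with that miRNA stood apart there. These were its log2 ratios to miR-877-3p of miR-320-3p (15.0, others 7.71 to 9.28), of miR-484 (13.6, others 7.22 to 8.98) and of miR-877-5p (7.84, others -2.81 to 1.19), and that of miR-877-3p to miR-1839-5p (-14.0, others -11.2 to -8.56). With a count of 0, the size of these 4 ratios depends on the pseudocount.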

How the results depend on the processing

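Of 313 values of members and ratios under alternatives, 294 kept their direction and side of the threshold, 6 newly passed, 7 no longer passed and 6 changed sign, and the cause was not tested. The change of miR-320-3p passed with library size scaling (-0.91) and with limma voom with quality weights (-0.94). It also passed with the replicate number as a block (-1.08, edgeR adjusted p = 0.0303), and lay between -0.94 and -0.55 on leaving out 1 library. That of miR-877-3p passed with the lysis index as a covariate (-2.09). Its ratio partners changed sign: with a pseudocount of 5 the difference was -0.11 for miR-320-3p and -0.48 for miR-484 over miR-877-3p, and on leaving out 1 library it ran from -0.30 to 0.61 and from -0.60 to 0.23. Same-numbered libraries did not vary together (correlations of -0.15 to -0.03, none of 6 sham libraries closest to its own number), so no pairing by number showed in the levels. Such correlations cannot exclude that libraries of equal number were handled together. In a replicate block of 6 numbers, the 7 ratios that passed no longer did: the differences were 4.92 (miR-320-3p over miR-877-5p), -2.98 (miR-320-3p over miR-1839-5p), 4.74 (miR-484 over miR-877-5p), -3.16 (miR-484 over miR-1839-5p), -7.90 (miR-877-5p over miR-1839-5p) and -3.76 (miR-877-3p over miR-1839-5p), each with an adjusted exact permutation p of 0.0521, where the raw p is the smallest that 6 pairs can give (0.03125), so this loss does not show a smaller difference, and -4.14 for the arms of miR-877 (0.0893). The block, on replicates 1 to 6 alone, left 71 higher miRNAs, where those libraries without it gave 87 and all libraries 108; the stricter filter also gave 71, and with no filter 307 differed and 167 were lower, in place of 201 and 93. Library size scaling shifted the median log2 fold change from 0.11 to -0.12 and the split to 90 higher and 126 lower, without changing the direction of any member. GC removal gave no value for miR-320-3p, and the stricter filter none for miR-877-3p. Of 186 values of companion miRNAs 161 kept direction and side, 16 newly passed (7 of miR-664-3p, 7 of miR-1981-3p, 2 of miR-1983), 5 of miR-664-5p no longer passed and 4 changed sign: miR-1981-5p with the GC trend removed (0.051), and miR-7068-3p with it removed (0.035), without CLP 1 and CLP 5 (0.079) and without sham 4, in a range of -0.34 to 0.040 on leaving out 1 library. Depth limits miR-877-3p and miR-1839-3p most.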

Other observations

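Bases 2 to 7 of miR-1839-5p were shared with 2 other rows, miR-196a-5p and miR-196b-5p, whose genes lie among the Hox genes. miR-196a-5p rose from 1.73 ± 1.35 CPM (SD, n = 6) to 7.05 ± 4.19 (n = 9), a log2 fold change of 2.05 ± 0.48 (SE; edgeR adjusted p = 0.00195). Of 9 CLP libraries, 7 exceeded the sham range. miR-196b-5p was at 0.92 ± 0.65 and did not pass (edgeR adjusted p = 0.254). Bases 2 to 7 of miR-484 were shared with miR-1191b-5p, at 0.90 ± 0.39 (edgeR adjusted p = 0.0676), and with miR-7656-3p, which was not tested.

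A further product of the miR-3102 hairpin, looked up after its values were seen, was miR-3102-5p.2-5p. It went from 6.44 ± 1.62 CPM (SD, n = 6) to 1.05 ± 0.726 (n = 9), a log2 fold change of -2.56 ± 0.45 (SE; edgeR adjusted p = 0.000157), with all 9 CLP libraries below every sham library. Another product of the miR-3102 hairpin, miR-3102-3p.2-3p, also had a row among the counts and is not reported here. miR-320-5p, the other arm of miR-320, was read 4 times in sham 4 and in no other library.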
